A study of Homo sapiens with 60 samples.

Results

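Untreated HCC2935 cells were compared with 3 other EGFR-mutant lung cancer lines, PC9, HCC827 and H1975, to describe the baseline identity of the line. The libraries were chosen by their labels alone: the 3 libraries of HCC2935 grown with DMSO, and the 3 DMSO libraries of each other line. These were 12 of the 60 RNA-seq libraries of the series.

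The series holds 4 non-small cell lung cancer lines in 5 arms with 3 biological replicates each, and it follows what osimertinib, a third-generation EGFR inhibitor, leaves behind in the cells that survive it. In the DMSO arm, parental cells of each line were grown without drug for 21 days and then given the vehicle DMSO for 24 h. In the other 4 arms osimertinib was given at 500 nM, either for 24 h (acute) or for 21 days to leave drug-tolerant persisters (DTPs), which were harvested at once, after 24 h without drug (short washout) or after a long washout. The long washout lasted 10 days in HCC2935, 7 days in PC9, 4 days in HCC827 and 3 days in H1975. Each line was grown from a single tumour, and the growth conditions in the labels name H1975 only, so the medium of HCC2935 is not known here.

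EGFR is a receptor tyrosine kinase that signals through RAS and ERK, and activating mutations in its kinase domain drive a subset of lung adenocarcinomas. These tumours arise in the epithelium of the distal airway and often keep genes of that tissue, such as surfactant and secretory genes. Lines from different tumours can differ in lineage genes, in gene copy number and in what culture has selected, and RNA levels record all of these at once.

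The 3 HCC2935 libraries held 24.0, 21.3 and 20.4 M estimated counts, and the 12 libraries ranged from 19.7 to 47.5 M. Levels are given in CPM, counts scaled to a common library total with TMM factors, and a count of 3 in a library was worth a mean of 0.133 CPM in HCC2935, 0.0817 in PC9, 0.144 in HCC827 and 0.0622 in H1975. Libraries of a line correlated at 0.974 to 0.991 across genes and differed from each other by more than counting noise, with a chi-square of 8.66 to 80.5 per degree of freedom. The highest correlation between libraries of different lines was 0.876. Each gene was tested with edgeR's quasi-likelihood test, and its log2 fold change is the HCC2935 level minus the mean of the other 3 lines' levels on the log2 scale, given with its standard error (SE). A gene was called at a Benjamini-Hochberg adjusted p under 0.05. It was said to be set apart when it was also called in the same direction against PC9, HCC827 and H1975 one by one. The p-values measure the spread between cultures of a line and not the spread between tumours.

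Of 15214 genes tested, 10464 (68.8%) were called, 5443 (35.8%) higher in HCC2935 and 5021 (33.0%) lower. A call against a mean can rest on 1 line: 1503 of the genes called higher were not above every other line's mean. Against each line, 2397 genes (15.8%) were set apart as higher and 2409 (15.8%) as lower. At least 2-fold against each line, 1189 (7.82%) were higher and 850 (5.59%) lower. The median log2 fold change over all genes was 0.01 and the median SE was 0.14. Of the 10464 calls 52.0% were higher. Other scaling of the counts moved this little, to 53.4% with RLE factors and 55.8% with library size only. A change of both test and measure, limma on the deposited log2 TPM values, gave 64.6% of 10725 calls and an all-gene median of 0.28. With the 9 other libraries as 1 group 46.7% of 5013 calls were higher, and the all-gene median was -0.14. Levels in CPM and directions below are on the TMM scale. Summed levels of markers and lists are in TPM, which is not on that scale.

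Markers of the epithelium were high in all 12 libraries. The summed level of CDH1, EPCAM, KRT8, KRT18, KRT19 and KRT7 was 12872 TPM (transcripts scaled for length and library) in HCC2935, 8773 in PC9, 9612 in HCC827 and 4133 in H1975, with KRT8 the most abundant in HCC2935. E-cadherin, the adhesion protein encoded by CDH1, stood at 1402, 1533 and 1362 CPM, against means of 324 in PC9, 1046 in HCC827 and 248 in H1975, so all 3 HCC2935 libraries lay above the other 9 (log2 fold change 1.71, SE 0.19, adjusted p = 2.76e-06). It was not set apart, since it was not called against every line, and its smallest difference was 0.45 on the log2 scale, from HCC827. Of the simple keratins, KRT8 at 3407, 3437 and 3251 CPM lay between HCC827 and PC9 and KRT18 at 2464, 2579 and 2449 CPM lay within the range of the other lines. In TPM, the scale of the sum, HCC2935 had the highest mean of both. These were 3122 for KRT8 (2742 in PC9) and 2848 for KRT18 (2523 in HCC827). Their calls as higher (0.67 and 0.48 on the log2 scale) rested on H1975: against the mean of PC9 and HCC827 the differences were 0.14 and -0.12 and neither was called. The same held for EPCAM, which fell from 0.72 to 0.25 without H1975 in the mean and was no longer called. KRT19, another simple keratin, had a mean of 2357 CPM against 1299.9 in PC9, 1745 in HCC827 and 608 in H1975 and was called higher (1.08, SE 0.11). KRT7 was not called.

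Of 5 lung adenocarcinoma markers, 4 had values here, and NKX2-1 was not analysed here, since the symbols used hold none with a hyphen. Their sum was 336 TPM in HCC2935, 28.3 in PC9, 80.7 in HCC827 and 7.97 in H1975. NAPSA, an aspartic protease that processes surfactant protein B, made up most of it at 218, 209 and 170.3 CPM, against 0.392 in PC9, 53.5 in HCC827 and 1.39 in H1975 (SE 0.22, adjusted p = 7.53e-11), which is 1.89 above HCC827 on the log2 scale. FOXA1, a pioneer transcription factor of endoderm, stood at 157, 151 and 155 CPM against 0.278 to 60.9 CPM (median 51.1) in the other 9 libraries (3.94, SE 0.10). Both lay above all other libraries. The related factor FOXA2 had a mean of 9.70 CPM and was close to H1975 at 10.4, and SFTPB, a surfactant protein, had 57 counts over the 3 HCC2935 libraries and was not called.

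The defining markers of basal or squamous cells were divided. TP63, the master factor of basal cells, stood at 29.3, 24.6 and 30.3 CPM against 0.400 in PC9, 1.49 in HCC827 and 8.08 in H1975 (4.05, SE 0.32), and KRT14 stood at 7.15, 10.8 and 6.36 CPM where the other 9 libraries ran from 0 to 0.385 CPM (median 0.0472). KRT5, the usual partner of KRT14, had 19 counts over the 3 HCC2935 libraries and a mean of 73.4 CPM in PC9. HCC2935 thus carried epithelial markers and, of the lung adenocarcinoma markers, NAPSA and FOXA1 above every line, with TP63 and KRT14 RNA but next to no KRT5.

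Markers of other cells were also read. The immune markers summed to 89.8 TPM in HCC2935, 27.1 in PC9, 103 in HCC827 and 112 in H1975, nearly all of it CD68, a lysosomal protein not limited to macrophages, while PTPRC, which marks all leukocytes, had 2 counts and CD3E 1 count in HCC2935. The endothelial markers summed to 14.3 TPM in HCC2935, 12.4 in PC9, 0.491 in HCC827 and 1.67 in H1975. In HCC2935 this was nearly all CDH5, with PECAM1 at 12 counts. The fibroblast markers summed to 28.9 TPM against 28.4 in H1975, 7.56 in PC9 and 7.42 in HCC827, nearly all COL1A1. LUM, DCN and COL3A1 were too low to be tested. The mesenchymal markers summed to 1252 TPM in HCC2935, 41.9 in PC9, 145 in HCC827 and 1512 in H1975, and in HCC2935 this was nearly all FN1. In bulk RNA, more cells with a transcript and more transcript per cell cannot be told apart.

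The 10 genes with the largest positive log2 fold changes, among those set apart at least 2-fold with all HCC2935 libraries above the other 9 and a mean of at least 10 CPM, were PPBP, DAAM2, EPB41L3, NPNT, PTPRT, CPA6, CRISP3, F13A1, BRINP1 and APCDD1. Each was at 0 in at least 1 other line, so their differences are given as ratios, with "at least" where the other line had no count and 3 counts per library were put in its place. Intervals in brackets are 95% intervals, and they and the floors cover counting error only.

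PPBP, a chemokine stored in platelets, stood at 15.5, 15.7 and 11.8 CPM in HCC2935 and had no count in any of the other 9 libraries. It was at least 176-fold higher than in PC9, at least 99.97-fold higher than in HCC827 and at least 231-fold higher than in H1975. DAAM2, a formin that links WNT signals to actin, stood at 23.6, 27.2 and 17.2 CPM, with no count in PC9 or H1975 and 2 in HCC827, and was 663-fold (counting interval 198 to 5900.2) higher than in HCC827. By the rule of choice, the HCC2935 range did not overlap that of the other lines for either gene. EPB41L3, a membrane-cytoskeleton linker, was the most abundant of the 10 in CPM at 134, 150.4 and 104, against 0 to 0.849 CPM (median 0) in the other lines, and was 188-fold (counting interval 138 to 255) higher than in HCC827. NPNT, a matrix ligand of integrin alpha 8, stood at 44.5, 45.3 and 23.5 CPM against 0 to 0.719 CPM (median 0), so its lowest HCC2935 library was still far above the other lines.

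PTPRT, a receptor tyrosine phosphatase, stood at 13.4 ± 1.12 CPM in HCC2935 (mean and SD) and had 2 counts over the other 9 libraries. CPA6, an extracellular carboxypeptidase, stood at 11.5, 11.6 and 10.4 CPM with 5 counts elsewhere, and BRINP1, a gene known from neurons, at 16.6, 20.3 and 22.9 CPM with 8. Together with PPBP and DAAM2 these were the 5 genes that met a rule for being on in HCC2935 alone among the 4 lines, a mean of at least 10 CPM here and at most 3 counts in every other library. The remaining 3 of the 10 had some counts in 1 or more other libraries. CRISP3, a secreted cysteine-rich protein, stood at 13.9, 10.6 and 13.6 CPM and was 101-fold (counting interval 60.6 to 186) higher than in PC9 and at least 88.5-fold higher than in HCC827. F13A1, the catalytic subunit of coagulation factor XIII, stood at 12.5, 10.5 and 15.2 CPM and was 93.8-fold (counting interval 62.2 to 161) higher than in H1975 and at least 88.7-fold higher than in HCC827. APCDD1, an inhibitor of WNT receptors, stood at 23.8, 19.8 and 20.2 CPM and was 248-fold (counting interval 115 to 827) higher than in HCC827 and 605-fold (counting interval 266 to 1908) higher than in H1975.

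**Figure D1:**
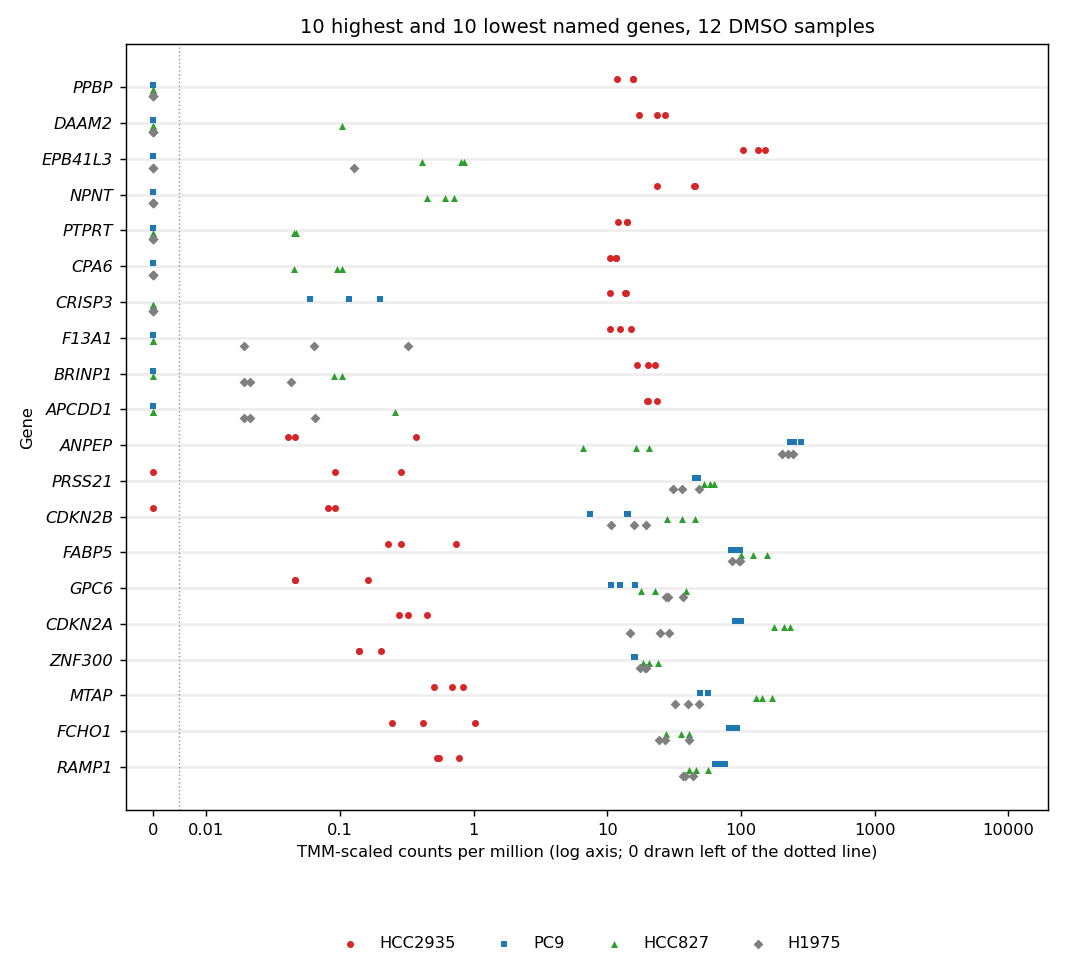
Levels of the 10 genes highest and the 10 genes lowest in HCC2935 against the mean of the other lines. They were taken from genes set apart at least 2-fold with every HCC2935 library outside the range of the other 9. A mean of at least 10 CPM was also asked, in HCC2935 (higher) or in each other line (lower). Levels are TMM-scaled CPM on a log axis, 1 point per library and 1 colour per line (12 libraries). By this choice the 3 HCC2935 points of every gene lie outside the range of the other 9. PPBP, for example, lies between 11.8 and 15.7 CPM in HCC2935 and at 0 elsewhere.

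The 10 lowest genes were taken by the same rule, with a mean of at least 10 CPM in each other line, so genes that were lower by fold but weaker in the other lines are not among them. ANPEP, the cell-surface aminopeptidase N, stood at 0.0406, 0.369 and 0.0461 CPM in HCC2935 against 6.55 to 280.4 CPM (median 223) in the other 9 libraries (log2 fold change -9.28, SE 0.50, adjusted p = 2.39e-09). PRSS21, a membrane-bound serine protease best known from testis, stood at 0.284, 0 and 0.0922 CPM against means of 46.5 in PC9, 58.5 in HCC827 and 38.6 in H1975 (-8.44, SE 0.34). FABP5, a fatty acid binding protein of epithelia, stood at 0.284, 0.739 and 0.231 CPM against 84.4 to 156 CPM (median 98.9) (-7.95, SE 0.26). In all of these genes HCC2935 was near the floor and no other library came close to it. ANPEP had 10 counts in HCC2935, most of them in 1 library, and was 1672-fold (counting interval 939.6 to 3603) lower than in PC9, 95.3-fold (counting interval 53.7 to 206) lower than in HCC827 and 1466-fold (counting interval 821 to 3148) lower than in H1975. Without 1 HCC2935 library its log2 fold change ran from -10.97 to -8.79.

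GPC6, a heparan sulfate proteoglycan of the cell surface, stood at 0.162, 0.0462 and 0.0461 CPM against 10.7 to 39.1 CPM (median 22.6) (-7.91, SE 0.45). ZNF300, a zinc finger factor, stood at 0.203, 0.139 and 0.138 CPM against 15.9 to 23.9 CPM (median 18.4) (-6.80, SE 0.21), a narrow range over 3 unrelated lines. FCHO1, which helps start clathrin-coated pits, stood at 0.244, 1.02 and 0.415 CPM against 24.3 to 94.2 CPM (median 40.7) (-6.36, SE 0.33). RAMP1, which modifies the calcitonin family of receptors, stood at 0.528, 0.554 and 0.784 CPM against 36.8 to 76.6 CPM (median 46.0) (-6.36, SE 0.19). By the rule of choice, HCC2935 lay below all other libraries in each. The other members of these 10 were CDKN2B, CDKN2A and MTAP, which lie side by side on chromosome 9.

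The promoters of the first 2 genes of each 10 are shown, since they mark the starts of the genes that head these 2 lists. They are RefSeq windows of 250 bases before to 50 after the gene start, 300 bases in GRCh38.p14, each read on the strand of its gene, at chr4:73988141-73988440 (-) for PPBP, chr6:39792126-39792425 (+) for DAAM2, chr15:89814803-89815102 (-) for ANPEP and chr16:2816987-2817286 (+) for PRSS21. Capitals mark CG dinucleotides and matches, on either strand, to the TBP-bound box TATAAA, the AP-1 site TGANTCA or the ETS site CCGGAAG.
PPBP: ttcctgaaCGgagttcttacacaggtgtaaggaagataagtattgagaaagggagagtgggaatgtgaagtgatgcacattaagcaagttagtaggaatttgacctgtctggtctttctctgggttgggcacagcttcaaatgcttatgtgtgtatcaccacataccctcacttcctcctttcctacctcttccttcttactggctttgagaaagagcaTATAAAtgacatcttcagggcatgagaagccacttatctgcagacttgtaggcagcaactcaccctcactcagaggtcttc
DAAM2: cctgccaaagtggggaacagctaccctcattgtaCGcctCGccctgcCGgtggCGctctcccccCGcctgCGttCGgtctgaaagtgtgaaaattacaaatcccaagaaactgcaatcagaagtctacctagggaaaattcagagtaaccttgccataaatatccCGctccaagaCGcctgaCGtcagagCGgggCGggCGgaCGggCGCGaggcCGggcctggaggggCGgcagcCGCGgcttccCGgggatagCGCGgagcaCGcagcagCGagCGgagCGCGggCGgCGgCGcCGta
ANPEP: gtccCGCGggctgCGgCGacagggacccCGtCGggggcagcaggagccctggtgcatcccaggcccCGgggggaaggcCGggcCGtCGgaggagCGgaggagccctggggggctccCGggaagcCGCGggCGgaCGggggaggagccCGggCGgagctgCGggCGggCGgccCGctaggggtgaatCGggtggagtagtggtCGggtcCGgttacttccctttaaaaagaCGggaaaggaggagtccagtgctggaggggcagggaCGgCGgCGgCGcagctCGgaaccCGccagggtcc
PRSS21: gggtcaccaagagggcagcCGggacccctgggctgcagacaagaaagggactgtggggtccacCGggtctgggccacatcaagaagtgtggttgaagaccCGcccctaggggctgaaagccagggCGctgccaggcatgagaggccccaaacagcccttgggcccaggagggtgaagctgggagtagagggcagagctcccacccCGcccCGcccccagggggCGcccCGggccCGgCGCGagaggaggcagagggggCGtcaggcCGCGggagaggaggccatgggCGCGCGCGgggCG
The PPBP window had 1 CG dinucleotide and matched the box TATAAA, while those of DAAM2 and ANPEP had 32 each and that of PRSS21 had 19, with no match to a motif. Over the 11789 promoters of tested genes in the table, the median was 25 CG dinucleotides, 6.39% held a TATA box, 5.09% an AP-1 site and 17.4% an ETS site. Fewer than 80% of the genes had a promoter in the table (69.9% of those set apart at least 2-fold as lower), so a comparison of the promoter sets is void.

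CDKN2A encodes the cell cycle inhibitors p16INK4A and p14ARF, CDKN2B encodes p15INK4B, and MTAP salvages adenine and methionine from methylthioadenosine. CDKN2A stood at 0.447, 0.277 and 0.323 CPM in HCC2935 against 14.7 to 231 CPM (median 93.5) in the other 9 libraries (log2 fold change -7.74, SE 0.30, adjusted p = 9.68e-11). CDKN2B stood at 0.0812, 0.0924 and 0 CPM against 7.44 to 45.2 CPM (median 15.9) (-8.23, SE 0.51). MTAP stood at 0.690, 0.831 and 0.507 CPM against 32.1 to 171 CPM (median 56.9) (-6.66, SE 0.21). In all 3 genes every HCC2935 library lay below 1 CPM and every other library above 7. CDKN2B was the only gene that met the rule for being off in HCC2935, at most 3 counts in each of its libraries and a mean of at least 10 CPM in each other line: it had 4 counts in HCC2935 and 5889 in the other 9 libraries. It was 207-fold (counting interval 81.1 to 762) lower than in PC9, and CDKN2A was 65.3-fold (counting interval 43.8 to 102) lower than in H1975, the nearest line.

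The neighbours of these genes were then read, chosen after their values were seen. Positions are from GENCODE 29 on GRCh38, the build the deposited tables were made on. Starting toward the short-arm end, KLHL9 (chr9:21329671-21335380), a subunit of a ubiquitin ligase, had a mean of 0.701 CPM against 25.3 in PC9, 47.6 in HCC827 and 18.3 in H1975. IFNE, an epithelial interferon, had no count in HCC2935 and 49, 41 and 86 counts in PC9, HCC827 and H1975. MTAP (chr9:21802543-21937651), CDKN2A (chr9:21967753-21995301) and CDKN2B (chr9:22002903-22009363) came next. DMRTA1, a transcription factor gene, had 3 counts in HCC2935 and was 17.5-fold (counting interval 5.91 to 83.7) lower than in PC9 and 33.3-fold (counting interval 11.5 to 164) lower than in H1975. TUSC1 (chr9:25676389-25678440), a gene without introns, had 2 counts and was 154-fold (counting interval 44.1 to 1317) lower than in HCC827, the nearest line. All 7 were set apart at least 2-fold as lower. ELAVL2, an RNA-binding protein gene between DMRTA1 and TUSC1, was low in every line, lowest in HCC2935, and was not called (-1.51, SE 0.67).

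The run had edges. On the side of KLHL9 the next tested gene, HACD4, was not called (-0.55, SE 0.27). FOCAD beyond it was higher than the mean of the other lines (0.36), though lower than HCC827 (-0.93). On the side of TUSC1 the next tested gene was CAAP1, with a mean of 11.9 CPM against 13.1 in PC9, 23.1 in HCC827 and 12.9 in H1975, which was not called (-0.40, SE 0.22). The low levels were not limited to DMSO. Over all 15 HCC2935 libraries of the 5 arms, the highest count was 13 for CDKN2A, 7 for CDKN2B, 50 for MTAP, 22 for KLHL9, 2 for DMRTA1, 4 for TUSC1 and 1 for IFNE. For ELAVL2 it was 26. DNA copy number was not analysed here. CDKN2A shares exon positions with the antisense gene CDKN2B-AS1, and it is not stated whether reads were counted by strand, so reads of the pair cannot be told apart.

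**Figure D2:**
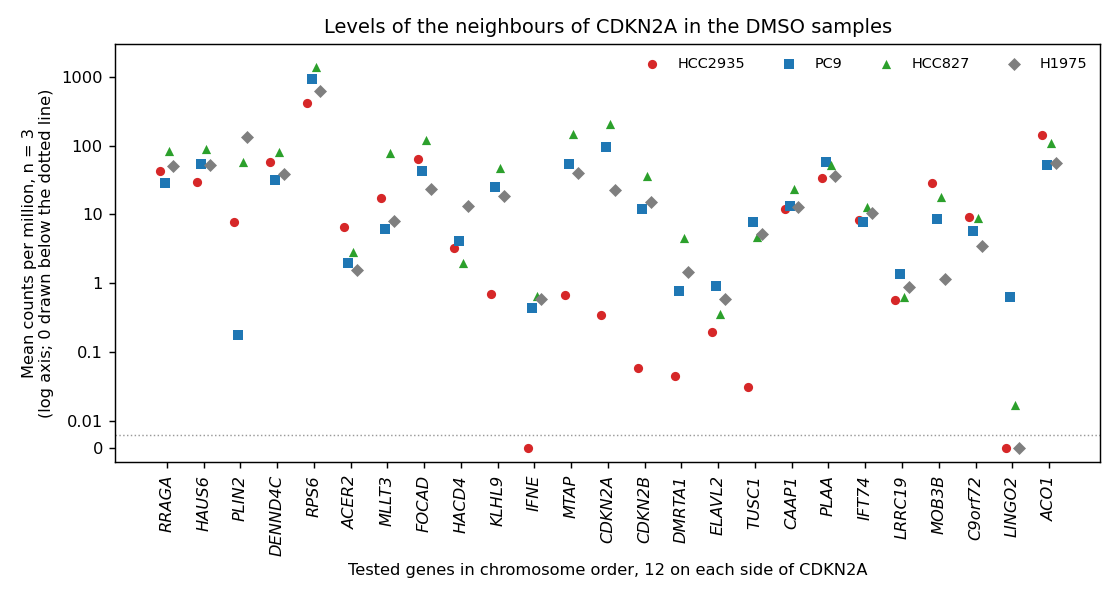
Mean TMM-scaled CPM (log axis, n = 3 per line) of the 25 tested genes around CDKN2A on chromosome 9, in order of position, 1 colour per line. From KLHL9 to TUSC1 the HCC2935 points lie below the other lines, at ELAVL2 too, which is low in all 4 and not called. At HACD4 HCC2935 lies above HCC827, and at CAAP1 it is the lowest line by a small step that is not called.

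For each list count below, the share over all tested genes was 35.8% called higher and 33.0% called lower. The share set apart at least 2-fold was 7.82% higher and 5.59% lower. Of the lung lineage list, 22 of 28 genes were tested, 14 were called higher and 3 lower. The median log2 fold change was 3.14, or 2.84 with genes absent from a line set at their floor. The list's summed level was 1346 TPM in HCC2935, 137 in PC9, 1455 in HCC827 and 206 in H1975, so HCC2935 and HCC827 were alike in total and far above the other lines. SFTA2, a surfactant-associated protein, stood at 115, 120.2 and 103 CPM, with no count in PC9 or H1975 and a mean of 56.6 in HCC827, 1.99-fold lower than in HCC2935. Lower in HCC2935 were SCGB3A2, a secretoglobin of the small airway, at 0.569, 0.462 and 0.645 CPM against 2.12 in PC9, 160.3 in HCC827 and 3.65 in H1975 (-4.26, SE 0.24), and ABCA3, the lipid pump of alveolar lamellar bodies, which was called at -1.02 but overlapped HCC827.

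In the airway basal list, of 19 tested genes, 16 were called higher and 1 lower, with a median of 3.39, and 10 were set apart at least 2-fold as higher. KRT6A, a keratin of stressed and basal epithelium, stood at 112, 129 and 129 CPM against 4.43 in PC9, 0.206 in HCC827 and 0.0343 in H1975 (8.55, SE 0.21). TRIM29, a partner of p63 programmes, stood at 331, 325 and 352 CPM against 91.2 in PC9, 0.618 in HCC827 and 0.385 in H1975 (6.90, SE 0.11). PC9 came nearest in both, but all 3 HCC2935 libraries were above it. ITGA6, the integrin that binds laminin, was the only member called lower (-0.34), and this rested on PC9: against HCC827 and H1975 alone it was 0.29.

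The 3 SPRR genes read here were named as the first genes of the highest run on chromosome 1, given below. SPRR3, a small proline-rich protein of the cornified envelope, stood at 137, 149.8 and 168 CPM against 0.130 to 0.616 CPM (median 0.401) (8.67, SE 0.15, adjusted p = 1.36e-13). SPRR1B stood at 95.3, 88.3 and 142 CPM against 0.0450 to 0.924 CPM (median 0.345) (8.38, SE 0.25). SPRR2A, of the same family, was lower in level at 6.17, 4.62 and 8.44 CPM but the other 9 libraries did not pass 0.0514. All 3 genes were high in every HCC2935 library and near the floor in the rest.

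Of 19 keratin genes tested, 14 were called higher and 0 lower by edgeR, with a median of 1.06, and leaving a line out of the mean gave up to 2 lower. KRT4, a keratin of mucosal squamous epithelium, varied between HCC2935 cultures at 81.6, 115 and 31.3 CPM against 0 to 1.65 CPM (median 0.458) in the other lines, and stayed above all of these. Of 19 mucin and goblet cell genes tested, 14 were called higher and 0 lower, with a median of 3.57 (3.39 at the floors), and without PC9 in the mean 2 were lower. Their summed level was 1687 TPM in HCC2935, 53.8 in PC9, 153 in HCC827 and 39.4 in H1975. MUC21, a membrane mucin, stood at 9.83, 11.8 and 15.7 CPM and did not pass 0.0856 CPM elsewhere. MUC2, the intestinal gel-forming mucin, was uneven at 2.36, 14.9 and 2.26 CPM and the lowest value still exceeded the 0.205 CPM of the highest other library. MUC4, a membrane mucin that binds ERBB2, stood at 46.7, 47.8 and 54.8 CPM, with its lowest HCC2935 library inside the range of PC9.

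**Figure D3:**
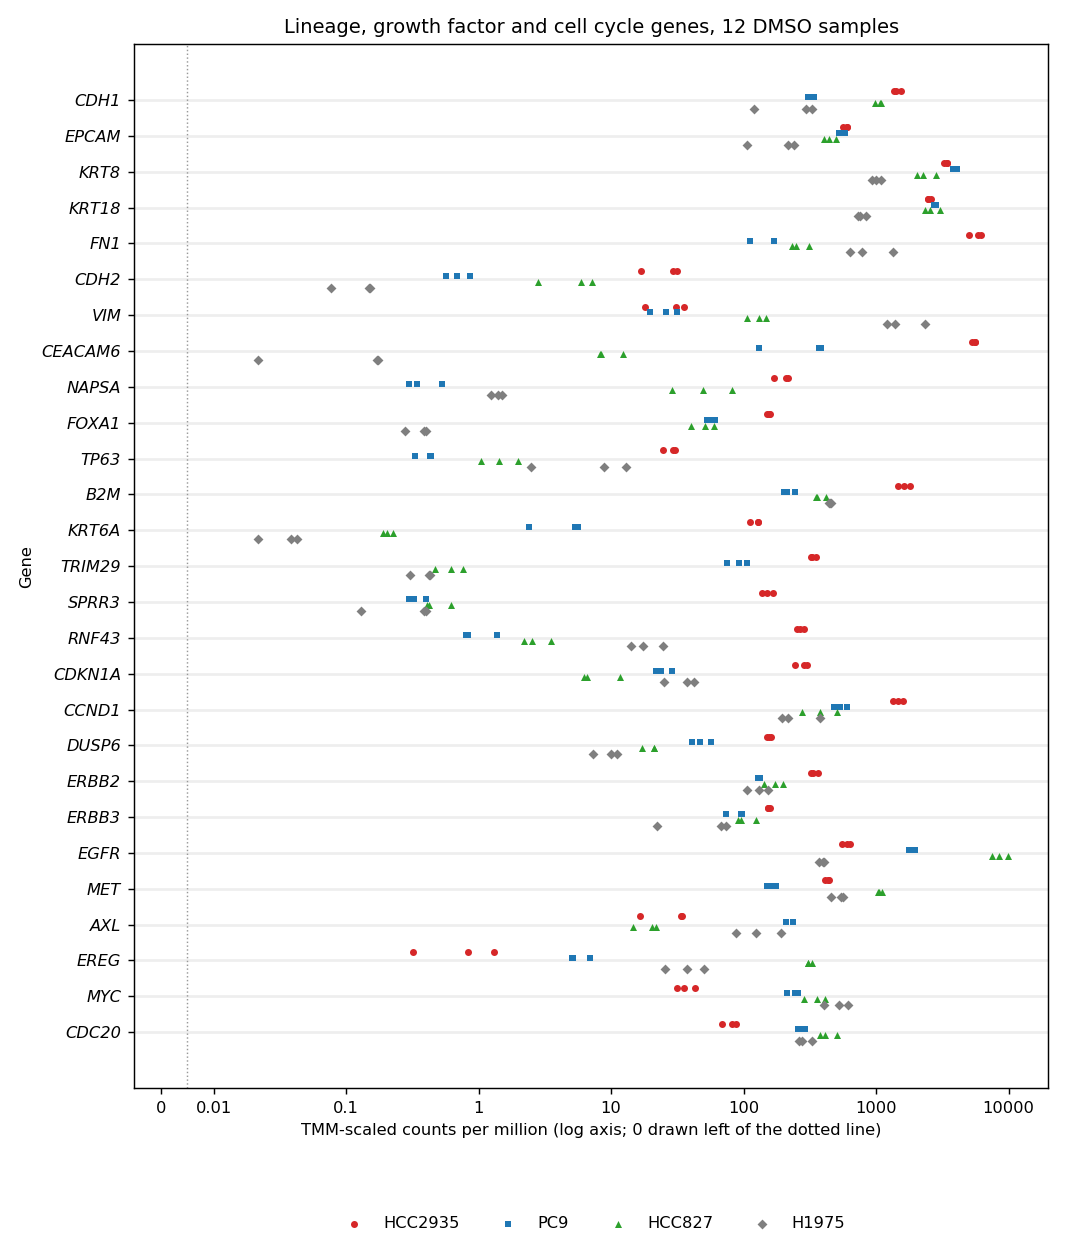
TMM-scaled CPM on a log axis of 27 genes of lineage, surface and signalling named in the text, 1 point per library and 1 colour per line (12 libraries). CEACAM6, SPRR3 and KRT6A show HCC2935 above all other libraries, MYC shows it below, and EGFR shows it between H1975 and the other lines.

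The gastrointestinal list had 12 of 26 genes tested, 5 called higher (41.7%, 35.8% of all genes) and 2 lower (16.7%, 33.0% of all genes). The median was 1.13 (0.63 at equal depth). Without PC9 in the mean, 3 were higher and 5 lower. CTSE, an aspartic protease of foregut epithelium, stood at 20.5, 19.4 and 28.7 CPM against 0.0901 to 2.55 CPM (median 0.734) (5.44, SE 0.25), above every other library. HNF4G, a nuclear receptor of gut epithelium, was called lower (-2.84) because of HCC827 at 43.7 CPM. The neuroendocrine list had 10 of 21 tested, 4 higher (40%, 35.8% of all genes) and 4 lower (40%, 33.0% of all genes). Its median was -0.13 with edgeR and 0.17 with limma on log2 TPM, each below the all-gene median of the same setting (0.01 and 0.28). Its summed level of 43.5 TPM was near that of H1975, and the 1048 TPM of PC9 came largely from UCHL1, a ubiquitin hydrolase, at 619.8 CPM there and 2.66 in HCC2935.

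All 34 epithelial genes were tested, 23 higher and 4 lower, with a median of 0.92, and 6 were set apart at least 2-fold as higher. PRSS8, a membrane serine protease that controls epithelial sodium channels, stood at 384, 414 and 369 CPM against 2.55 to 61.4 CPM (median 16.1) (4.41, SE 0.24). EHF, an ETS factor of epithelia, stood at 241, 215 and 219 CPM against 142 in PC9, 61.7 in HCC827 and 1.04 in H1975 (3.43, SE 0.15). Both lay above all other libraries. Lower were OVOL1, a zinc finger repressor of mesenchymal genes, at 4.43, 6.10 and 4.79 CPM and close to H1975 at 5.19, and GRHL2, a grainyhead factor of epithelial junctions, at 1.99, 2.31 and 1.66 CPM against 13.0 in PC9, 4.47 in HCC827 and 3.31 in H1975 (-1.54, SE 0.46). GRHL2 was no longer called with limma on log2 TPM (-1.10) or without PC9 in the mean (-0.96).

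The mesenchymal list had 12 of 32 tested genes higher (37.5%, 35.8% of all genes), 14 lower (43.8%, 33.0% of all genes) and a median of -0.38 (-0.56 at the floors, -0.18 with limma on log2 TPM), and without H1975 in the mean 9 were lower. FN1, fibronectin, stood at 5832, 6164 and 4987 CPM in HCC2935 against 151 in PC9, 265 in HCC827 and 919 in H1975 (4.09, SE 0.18), and CDH2, N-cadherin, at 31.3, 29.3 and 16.9 CPM against 0.706 in PC9, 5.31 in HCC827 and 0.126 in H1975 (5.04, SE 0.26). VIM, the intermediate filament vimentin, stood at 30.7, 35.6 and 17.9 CPM, near PC9 at 25.6 and far below H1975 at 1654 (-2.64, SE 0.26). HCC2935 thus combined high fibronectin and N-cadherin RNA with low vimentin RNA. LOX, a collagen crosslinking enzyme, stood at 0.406, 0.277 and 0.922 CPM against 5.42 to 141 CPM (median 8.55) (-5.14, SE 0.35) and its relative LOXL2 at 22.9, 21.6 and 17.0 CPM against 83.4 to 315 CPM (median 226) (-3.12, SE 0.13). Both were below all other libraries.

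Of 31 collagen genes tested, 15 (48.4%) were higher and 9 (29.03%) lower, with a median of 0.62. The shares of all genes were 35.8% and 33.0%. COL21A1, a fibril-associated collagen, stood at 16.5, 16.7 and 19.1 CPM against 0 to 1.17 CPM (median 0.0214), and COL22A1, a collagen of tissue junctions, at 7.72, 8.08 and 5.44 CPM against 0 to 1.62 CPM (median 0). COL6A1 and COL6A2, chains of the microfibrillar collagen VI, were lower (-2.84 and -2.59), with means of 18.3 and 8.34 CPM against 667 and 252 in PC9. Integrins and laminins had 16 of 31 higher and 4 lower, with a median of 0.48 (0.81 with limma on log2 TPM), and 7 or 9 were lower without PC9 or H1975 in the mean. ITGB3, the beta 3 integrin, was seen in 1 of 3 HCC2935 libraries, at 0, 0 and 0.461 CPM, against 0.366 in PC9, 3.43 in HCC827 and 30.5 in H1975 (-4.46, SE 0.70), and ITGA1, a collagen receptor, was higher at 32.8, 20.6 and 30.0 CPM against 15.4 in PC9, 5.01 in HCC827 and 4.56 in H1975 (1.98).

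**Figure D4:**
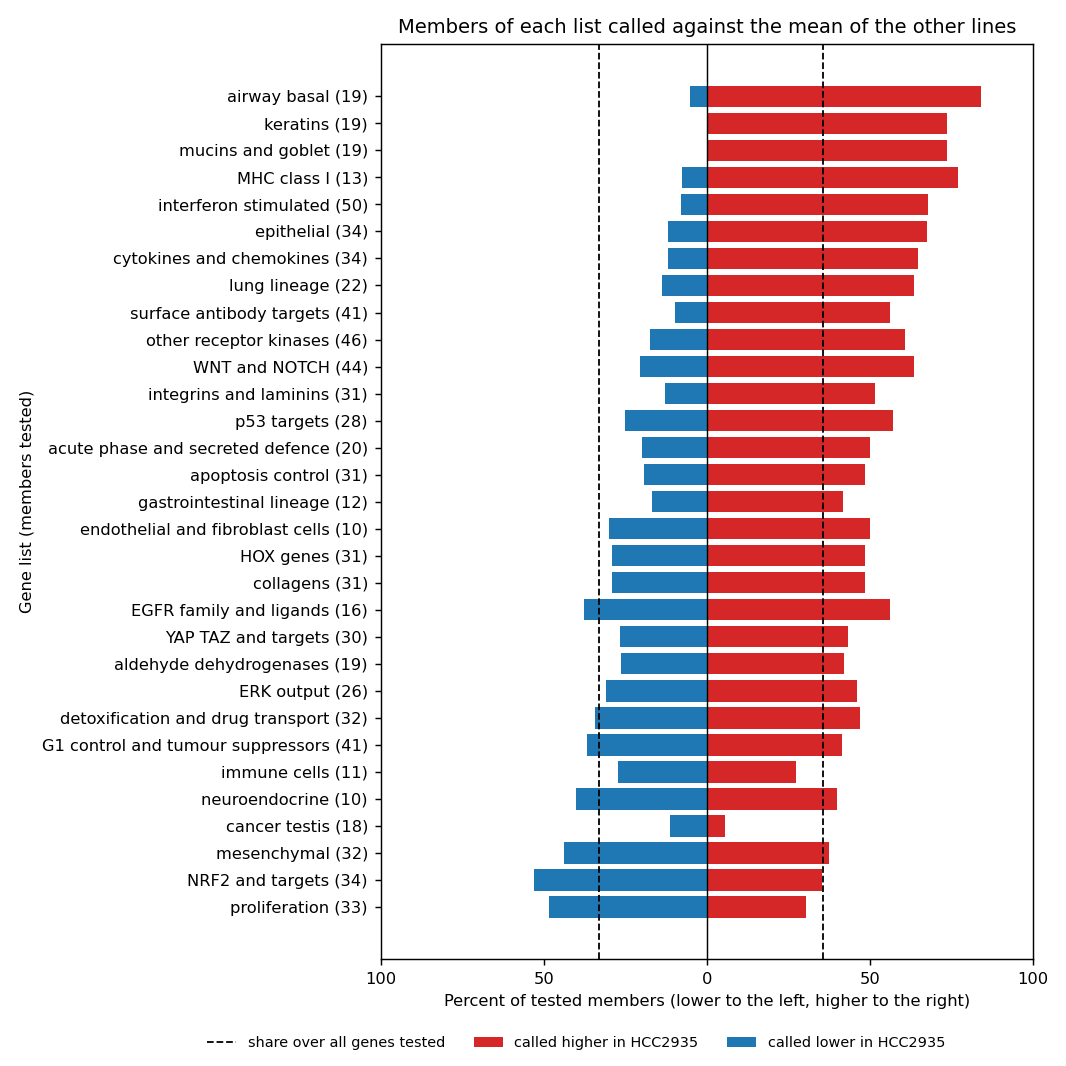
Share of the tested genes of each list called higher (bars to the right, percent) or lower (bars to the left, percent) in HCC2935 against the mean of the other lines, for the 31 lists with at least 10 tested genes. Dashed lines mark the shares over all 15214 tested genes, 35.8% higher and 33.0% lower. The airway basal list reaches 84.2% higher, and NRF2 targets lie on the lower side.

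EGFR itself was at 599.6, 633 and 558 CPM in HCC2935. The means of the other lines were 1852 in PC9, 8652 in HCC827 and 392 in H1975, so HCC2935 was above H1975 by 0.61 on the log2 scale and below PC9 and HCC827 (-1.63 and -3.86). The call as lower against the mean (-1.63, SE 0.09, adjusted p = 3.25e-09) followed from HCC827 and PC9. EGFR shares exon positions with EGFR-AS1, an antisense gene. ERBB2, its partner without a ligand, stood at 335, 365 and 325 CPM against 106 to 199 CPM (median 134) (1.26, SE 0.10) and was set apart. ERBB3, the partner with a weak kinase, stood at 154, 158 and 152 CPM against 22.1 to 123 CPM (median 90.4) (0.96, SE 0.24), above the other libraries but not set apart.

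Over the EGFR family, its ligands and feedback inhibitors, 9 of 16 tested genes (56.25%) were higher and 6 (37.5%) lower, with a median of 0.80. The shares of all genes were 35.8% and 33.0%. Of the ligands, TGFA stood at 209.8, 226 and 221 CPM against 21.5 to 142 CPM (median 42.6) (2.00, SE 0.10). EREG, epiregulin, stood at 1.30, 0.831 and 0.323 CPM against 5.71 in PC9, 313 in HCC827 and 37.8 in H1975 (-5.60, SE 0.32), and NRG1, the ligand of ERBB3, at 3.05, 3.74 and 1.94 CPM against 0.423 in PC9, 63.5 in HCC827 and 33.9 in H1975 (-1.74). TGFA and EREG were set apart in opposite directions, and NRG1 was above PC9 and below the other lines, and was not called without HCC827 or H1975 in the mean. LRIG1, which promotes receptor turnover, was called higher (1.39), though not without HCC827 in the mean (0.48).

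Of 46 other receptor kinases and their ligands tested, 28 were higher and 8 lower, with a median of 0.82 (0.74 at the floors). MET, the receptor of hepatocyte growth factor, stood at 434, 438 and 411 CPM, between PC9 at 163 and H1975 at 522, and was not called (-0.07, SE 0.08). It depended on the lines in the mean, since it was called lower without PC9 (-0.80) and higher without HCC827 (0.55), and limma on log2 TPM called it higher (0.21). AXL stood at 33.8, 34.4 and 16.6 CPM, near HCC827 at 18.9 and below PC9 at 218 and H1975 at 135 (-1.54). The fibroblast growth factor receptors split: FGFR2 stood at 23.4, 19.7 and 17.8 CPM against 0 to 3.56 CPM (median 0.404) (5.61, SE 0.30), while FGFR4 stood at 2.40, 1.75 and 1.38 CPM against 12.4 to 29.6 CPM (median 15.6) (-3.29, SE 0.18). FGF19, a ligand of FGFR4, stood at 17.5, 13.9 and 11.8 CPM against 0 to 1.53 CPM (median 0.281) (6.02). All 3 were set apart at least 2-fold. PDGFRB had no count in HCC2935, 21 in PC9, 4 in HCC827 and 785 in H1975, and it was not called without H1975 in the mean.

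Of 26 genes that report ERK output, 12 (46.2%) were higher and 8 (30.8%) lower, against 35.8% and 33.0% of all genes, with a median of 0.27 (0.54 with limma on log2 TPM). DUSP6, the ERK phosphatase, stood at 161, 156 and 151 CPM against 7.36 to 56.9 CPM (median 21.1) (2.90, SE 0.11, adjusted p = 9.98e-11), and EPHA4, an ephrin receptor, at 63.1, 63.4 and 59.3 CPM against 4.14 to 36.0 CPM (median 6.78) (2.60). CCND1, cyclin D1, stood at 1467, 1605 and 1335 CPM against 194 to 605 CPM (median 376) (1.95, SE 0.18). MYC stood at 43.1, 35.4 and 31.4 CPM against 214 to 613 CPM (median 361) (-3.26, SE 0.17, adjusted p = 1.68e-09), and FOSL1, a subunit of AP-1, at 57.6, 78.6 and 57.3 CPM against 126 to 515 CPM (median 189) (-1.84). Within 1 list, DUSP6, EPHA4 and CCND1 were thus above all other libraries and MYC and FOSL1 below them.

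All 33 proliferation genes were tested. Of these 10 were higher (30.3%, 35.8% of all genes) and 16 lower (48.5%, 33.0% of all genes). The median was -0.14 by edgeR and 0.13 by limma on log2 TPM, each below the all-gene median of the same setting (0.01 and 0.28). The mitotic regulators CCNB1, cyclin B1, at 128, 113 and 117 CPM against 284 to 376 CPM (median 326) (-1.47, SE 0.09), and CDC20, an activator of the anaphase-promoting complex, at 82.0, 87.5 and 69.0 CPM against 259.7 to 504 CPM (median 289.9) (-2.03, SE 0.12), were below all other libraries. TK1, thymidine kinase, stood at 319, 332 and 247 CPM against 101 to 149 CPM (median 135) (1.20, SE 0.12), and MCM5, of the replicative helicase, was higher at 1.33.

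Of 41 genes of G1 control and tumour suppression, 17 (41.5%) were higher and 15 (36.6%) lower, near the 35.8% and 33.0% of all genes, with a median of 0.05 (0.31 with limma on log2 TPM). CDKN2A, CDKN2B and MTAP were its 3 members set apart at least 2-fold as lower, and CCND1 and CDKN1A its 2 set apart at least 2-fold as higher. CDKN1A, which encodes p21, stood at 286, 299 and 246 CPM against 6.22 to 42.0 CPM (median 24.0) (3.85, SE 0.16, adjusted p = 2.10e-10). Of 28 p53 targets, CDKN1A among them, 16 were higher and 7 lower, with a median of 0.71, and 8 were set apart at least 2-fold as higher. GDF15, a stress cytokine, stood at 98.9, 101 and 161 CPM against 1.73 to 15.8 CPM (median 8.63) (4.21, SE 0.22). CCNG1, cyclin G1, was lower at 22.1, 25.8 and 20.9 CPM against 52.5 to 127 CPM (median 68.1) (-1.76), and RRM2B, a subunit of ribonucleotide reductase, was lower at -1.21.

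Among 31 apoptosis genes, 15 were higher (48.4%, 35.8% of all genes) and 6 lower (19.4%, 33.0% of all genes). The median was 0.25 (0.53 with limma on log2 TPM), and without PC9 in the mean 10 were lower. BMF, a BH3-only activator of cell death, stood at 95.2, 86.7 and 181 CPM against 5.09 to 77.8 CPM (median 11.8) (3.00, SE 0.32), with the lowest HCC2935 library close to the highest of HCC827. BCL2A1, an inhibitor of cell death, stood at 6.46, 5.86 and 8.94 CPM, like HCC827 at 7.45 and above the other lines. BAX, the pore-forming effector, stood at 32.0, 32.2 and 38.0 CPM against 39.6 to 114 CPM (median 53.1) (-0.86, SE 0.11), and TNFRSF10A, a TRAIL receptor, was lower at -0.98.

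The interferon-stimulated list had 34 of 50 tested genes higher and 4 lower, with a median of 0.99. This rested on PC9: its summed level was 163 TPM there, 1059 in HCC2935, 1136 in HCC827 and 1856 in H1975, and against the mean of HCC827 and H1975 alone 15 genes were higher and 14 lower. RSAD2, an antiviral enzyme, stood at 6.17, 7.30 and 10.5 CPM, like H1975 at 7.67, with 0.00773 in PC9 and 0.0629 in HCC827. BST2, the virus tether, stood at 0.365, 0.231 and 1.20 CPM and at 110.0 in H1975. Of the 50, 6 (12%) were set apart as higher and 0 as lower. Of all genes, 15.8% were set apart as higher and 15.8% as lower.

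Of 13 MHC class I presentation genes tested out of 19, 10 were higher and 1 lower, with a median of 1.33, and without HCC827 in the mean 2 were lower. Against every line 7 were set apart as higher, 5 of them at least 2-fold. The HLA genes have hyphens in their symbols and were not analysed here. B2M, the light chain of class I molecules, stood at 1626, 1458 and 1792 CPM against 201 to 456 CPM (median 360.0) (2.28, SE 0.08, adjusted p = 2.74e-11), and TAP1, the peptide transporter, at 154, 143 and 171 CPM against 17.8 to 60.5 CPM (median 26.6) (2.35, SE 0.08). All HCC2935 libraries lay above all others in both. CANX, a chaperone of the endoplasmic reticulum, was lower (-0.60). Of the class II list 2 genes were tested, and CD74, the invariant chain, was called higher (2.14) but lay at 13.5, 9.65 and 14.2 CPM, below H1975 at 79.2, and was not called without PC9 in the mean.

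Cytokines and chemokines had 22 of 34 tested genes higher and 4 lower, with a median of 2.25. A stricter filter on low counts left 13 higher, and without PC9 in the mean 10 were lower. CXCL8, the neutrophil chemokine interleukin 8, stood at 54.7 ± 36.3 CPM (mean and SD) against 0.232 to 5.70 CPM (median 1.41) (5.21, SE 0.30), with 1 HCC2935 culture well above its partners and all 3 above the other lines. CXCL17, a mucosal chemokine, stood at 3.70, 3.97 and 7.56 CPM and at no more than 0.154 elsewhere. IL6 went the other way at 0.203, 0.231 and 0.323 CPM against 1.20 to 7.83 CPM (median 3.05) (-3.60, SE 0.51), as did CSF1, the macrophage growth factor, at 12.3, 15.5 and 21.4 CPM against 38.2 to 101 CPM (median 51.9) (-1.91). Of 20 acute phase and secreted defence genes, 10 were higher and 4 lower, with a median of 0.71, and some settings left 2 lower. PIGR, which carries IgA across epithelium, stood at 9.62, 6.60 and 26.7 CPM against 0.0896 to 4.64 CPM (median 0.286) (5.01). C1S, a complement protease, was lower (-1.80, SE 0.34).

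Among 41 tested targets of surface antibodies, 23 were higher and 4 lower, with a median of 0.80. CEACAM6, an adhesion protein of epithelial tumours, was one of the most abundant transcripts of the line at 5578, 5604 and 5266 CPM, against 296 in PC9, 9.64 in HCC827 and 0.122 in H1975 (9.58, SE 0.28, adjusted p = 9.99e-12). MSLN, mesothelin, stood at 14.4, 16.4 and 13.7 CPM, at least 182-fold higher than in PC9 and 29.5-fold higher than in HCC827. LY6D, a surface protein of squamous epithelium, was called lower (-2.50) with a level like that of H1975. Without PC9 or H1975 in the mean the number called lower was 10 or 8.

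WNT and NOTCH genes had 28 of 44 higher and 9 lower, with a median of 1.15. LGR6, a receptor for R-spondins, stood at 57.1, 46.4 and 66.0 CPM against 0.0216 to 0.565 CPM (median 0.478) (7.68, SE 0.26), and RNF43, the ubiquitin ligase that removes WNT receptors, at 286, 255 and 266 CPM against 0.801 to 24.5 CPM (median 2.55) (6.16, SE 0.15, adjusted p = 2.54e-12). Both were set apart by more than 8-fold from every line. FZD3, a WNT receptor, was lower at 3.49, 4.06 and 1.61 CPM against 9.95 to 20.5 CPM (median 14.9) (-2.33), and so was NRARP, a NOTCH target, at -1.78. YAP, TAZ and their targets had 13 of 30 higher (43.3%, 35.8% of all genes) and 8 lower (26.7%, 33.0% of all genes). The median was 0.19 (0.50 with limma on log2 TPM). TEAD3, a DNA-binding partner of YAP, was higher (1.76, SE 0.11) and WWTR1, which encodes TAZ, was lower (-1.57, SE 0.18) at 47.9, 57.7 and 47.2 CPM against 72.9 to 342 CPM (median 164). VGLL1, a TEAD cofactor, stood at 56.9, 64.2 and 56.2 CPM, below PC9 at 155 and above the other lines.

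Of 31 HOX genes tested, 15 (48.4%) were higher and 9 (29.03%) lower, with a median of 0.52. The shares of all genes were 35.8% and 33.0%. Of the 31, 6 were set apart at least 2-fold as higher and 6 as lower. Of all genes, 7.82% and 5.59% were. HOXB3 stood at 19.6, 15.7 and 20.1 CPM against 0.0770 to 6.22 CPM (median 3.92) (3.59, SE 0.27), and HOXB8 at a mean of 7.81 CPM was like HCC827. HOXA9 stood at 0.0406, 0.0924 and 0.0922 CPM against 0.257 to 9.08 CPM (median 1.94) (-4.53, SE 0.55), and HOXA3 had 0.526 CPM, like H1975, against 34.4 in PC9 and 39.0 in HCC827. HOXA3 and HOXA9 lie among antisense transcripts.

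NRF2 and its targets had 12 of 34 higher (35.3%, 35.8% of all genes) and 18 lower (52.9%, 33.0% of all genes), with a median of -0.43 (-0.10 with limma on log2 TPM), and the summed level of 11159.5 TPM lay between PC9 at 14829.5 and the other lines. AKR1B10 and AKR1C3, aldo-keto reductases, were lower (-2.57 and -2.21), mostly against PC9, where they had means of 33.3 and 238 CPM. AKR1C3 was no longer called without PC9 in the mean (-0.37). TRIM16 was higher (1.79, SE 0.08). Of 19 aldehyde dehydrogenases, 8 were higher (42.1%, 35.8% of all genes) and 5 lower (26.3%, 33.0% of all genes). The median was 0.18 (0.46 with limma on log2 TPM). ALDH3A1, which is also a NRF2 target, stood at 48.0, 43.1 and 45.4 CPM, between PC9 at 78.0 and the near absence of HCC827 and H1975. ALDH1B1, a mitochondrial form, was lower than in every line (-0.91, SE 0.15).

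Detoxification and drug transport genes had 15 of 32 higher (46.9%, 35.8% of all genes) and 11 lower (34.4%, 33.0% of all genes). The median was 0.50, or 0.35 at the floors, 0.29 at equal depth and 0.77 with limma on log2 TPM. CYP1A1, the enzyme induced by the aryl hydrocarbon receptor, stood at 67.0, 79.2 and 167 CPM against 0.635 to 10.1 CPM (median 2.81) (5.21, SE 0.42). ABCA1, a cholesterol exporter, stood at 4.59, 3.14 and 2.90 CPM against 45.2 to 155 CPM (median 106) (-4.65, SE 0.21). The cancer testis list had 18 of 44 genes tested, 14 of them at 0 in some line, with 1 higher, 2 lower and a median of -4.64 (-2.98 at the floors). The counts here depended on the test and on the lines in the mean: DESeq2 called 12 lower, and edgeR 6 without PC9 in the mean. Its summed level was 5.97 TPM in HCC2935, 1069 in PC9, 420.5 in HCC827 and 1580.2 in H1975. PRAME, a repressor of retinoic acid signalling, stood at 0, 0 and 0.231 CPM in HCC2935 and at means of 0.0527 in PC9, 10.6 in HCC827 and 69.7 in H1975.

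The immune cell list had 11 of 23 genes tested, 3 higher and 3 lower, with a median of -0.91 (-0.36 at equal depth, -0.57 with limma on log2 TPM), and without PC9 in the mean 6 were lower. CSF1R was called lower at 0.812, 0.462 and 0.784 CPM against 0.881 in PC9, 6.62 in HCC827 and 13.2 in H1975 (-2.62). The endothelial and fibroblast list had 10 of 21 tested, 5 higher (8 when no gene was filtered) and 3 lower, with a median of 0.79. CDH5, VE-cadherin, stood at 23.7, 26.9 and 31.8 CPM against 12.2 in PC9, 0.302 in HCC827 and 1.04 in H1975 (4.12, SE 0.20), above all other libraries, while PECAM1 was lower (-4.37, SE 0.61). The part of other cells in any result was not tested.

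The same log2 fold changes were also grouped by gene position, which the choice of libraries did not use. The groups were ranked by their medians without a test, so some group comes first and last in any case. Chromosome 14 had the highest median log2 fold change of any chromosome, 0.71 over 476 tested genes, with 69.3% called higher and 8.61% lower, and it was above 0 against PC9 (1.13), HCC827 (0.59) and H1975 (0.49). Chromosomes 6 (0.44), 7 (0.41), 22 (0.41) and 15 (0.40) followed, and chromosome 22 was higher than 14 against HCC827 (0.91) and chromosome 15 as high as 14 against H1975 (0.49). Chromosome 8 had the lowest, -0.69 over 496 genes, with 56.7% called lower, and was below 0 against each line (-0.74, -0.73 and -0.58). Chromosomes 3 (-0.58) and 12 (-0.54) came next and were also below 0 against each line. Chromosome 12 was as low as 8 against HCC827 (-0.73) and chromosome 3 was lower against H1975 (-0.70). On chromosomes 14 and 8 the medians thus lay on the same side against all 3 lines. This held on every chromosome read except 10, 11, 13, 19 and X. Some genes of chromosomes 14 and 8 went the other way, with 20.8% called higher on chromosome 8. The part of DNA copy number was not tested.

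**Figure D5:**
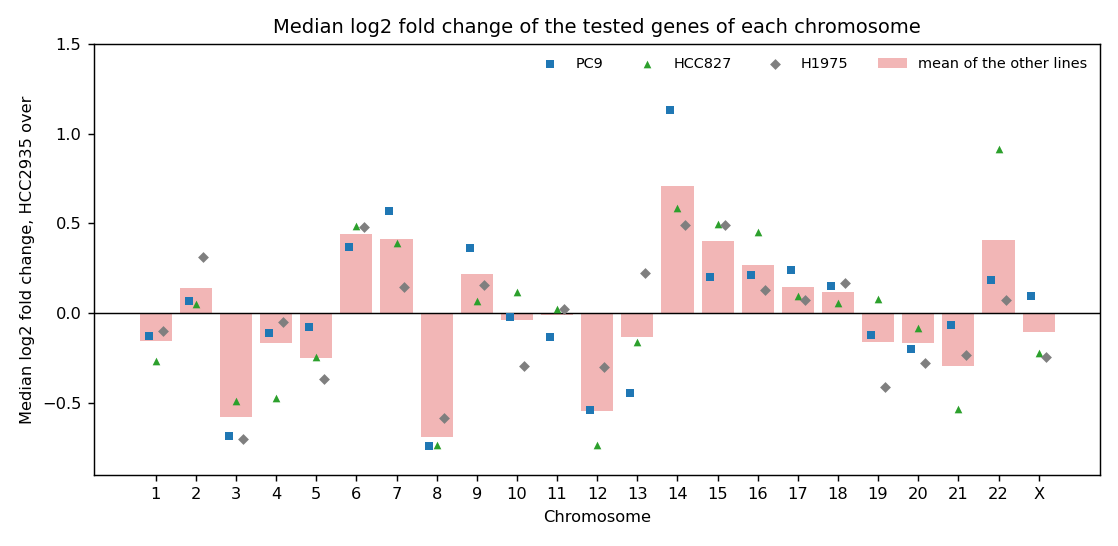
Median log2 fold change of the tested genes of each chromosome, HCC2935 against the mean of the other lines (bars) and against each line (points, 1 colour per line). Chromosome 14 is highest at 0.71 and chromosome 8 lowest at -0.69. On both the points of the 3 lines lie on the same side of 0, as on all others except 10, 11, 13, 19 and X.

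Runs of 31 neighbouring tested genes were ranked by their median over 14849 placed genes. The highest run lay on chromosome 1 from TUFT1 to S100A14 (median 1.55, 20 genes higher and 3 lower) and held SPRR3, SPRR2A and SPRR1B of the epidermal differentiation complex. The next, on chromosome 6 from VARS2 to DDAH2 (1.54, or 1.06 at the floors, 25 higher and 1 lower), held SFTA2, MUC21 and LY6G6C within the MHC region. A run on chromosome 9 from ALDH1B1 to ANXA1 (1.16, 21 higher and 4 lower) spanned the centromere and held PIP5K1B, ALDH1A1 and IGFBPL1.

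The lowest run lay on chromosome 8 from SBSPON to ZFAND1 (-1.86, 4 higher and 21 lower) and held FABP5. It was lowest against HCC827 (-3.50) and less so against PC9 (-0.50) and H1975 (-0.87), and its genes did not all move one way, since PKIA, an inhibitor of protein kinase A, stood at 31.1, 28.6 and 25.4 CPM in HCC2935 and 1.59 in PC9, 11.3 in HCC827 and 0 in H1975. PI15, in the same run, had no count in HCC2935 or H1975, 6 in PC9 and 143 in HCC827. It was not called by edgeR and was called lower by DESeq2 and by limma on log2 TPM. Another, from ANKRD46 to EIF3H on the same chromosome (-1.45, 3 higher and 22 lower), held LRP12, a receptor of the LDL family, at 2.44, 1.80 and 0.599 CPM against 14.1 to 49.6 CPM (median 29.9) (-4.03, SE 0.28), with CTHRC1 lower (-3.72) and NCALD higher (3.93). A run on chromosome X from MTM1 to SLC6A8 had a median of -1.81 that rested on genes at 0, and at the floors it was -0.93. Against PC9 its median was -1.61, against HCC827 -0.58 and against H1975 0. It held MAGEA3 and MAGEA6, near-identical copies whose reads can be exchanged, with no count in HCC2935 or H1975, 10 and 12 counts in HCC827 and means of 464 and 185 CPM in PC9. With HCC2935 and H1975 at 0, edgeR called neither, and DESeq2 and limma on log2 TPM called both lower. It also held PNMA6A, at 5.36, 2.26 and 2.72 CPM in HCC2935.

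The same contrasts were fitted in the libraries of each other arm, none of which entered the DMSO fit. Of the 1189 genes set apart at least 2-fold as higher under DMSO, 857 (72.1%) were set apart in the same direction after acute osimertinib, 685 (57.6%) in DTPs, 721 (60.6%) after short washout and 705 (59.3%) after long washout. Of the 850 lower genes, the counts were 689 (81.1%), 581 (68.4%), 618 (72.7%) and 588 (69.2%). Over all genes of an arm, 12.2% to 14.2% were set apart in 1 direction, and in any arm at most 2 of the higher and 2 of the lower DMSO genes were set apart the opposite way. In all 5 arms, 528 of the higher genes (44.4%) and 482 of the lower genes (56.7%) were set apart, while 201 and 77 were so under DMSO alone. The long washout times differ between lines.

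CDKN2A, CDKN2B, MTAP, ANPEP, PRSS21, FABP5, ZNF300 and MYC were set apart as lower in all 4 other arms. PPBP, EPB41L3, NPNT, CEACAM6, SPRR3, RNF43, CDKN1A, B2M and TAP1 were set apart as higher in all 4. These calls held in every arm, but the levels and the sizes of the differences moved. The means of SPRR3 in HCC2935 were 21.5 to 29.6 CPM in the other arms, below those under DMSO. The log2 fold changes of RNF43 were 3.83 to 5.37, smaller than under DMSO. Those of MYC were -4.38 to -3.76, larger in size than under DMSO. GPC6 was set apart as lower only under acute osimertinib, with HCC2935 means of 0.112 CPM there, 3.30 in DTPs and 4.43 after long washout. CRISP3 likewise was set apart as higher only there, and so were SFTA2, KRT6A and KRT4. In DTPs KRT6A had a mean of 3.87 CPM in HCC2935 and 4.56 in PC9, and KRT4 had 22.5 and 78.9. TRIM29 was set apart as higher only after short and long washout, while SPRR1B was so in all 4 other arms.

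DUSP6, CCND1, CXCL8 and TGFA were set apart from every line under DMSO and in none of the other arms. They were not the only ones, since 201 of the genes set apart at least 2-fold as higher under DMSO were set apart in no other arm. Against the mean of the other lines, DUSP6 (log2 fold changes 1.68 to 1.99) and CCND1 (0.74 to 1.78) were still called higher in all 4 arms, and CXCL8 in 3 of them (1.53 to 1.75). The mean of DUSP6 in HCC2935 was 3.48 CPM after acute osimertinib, 12.2 in DTPs and 19.7 after long washout, against 156 with DMSO. For CCND1 the means were 174, 528, 751 and 643 CPM, against 1469 with DMSO. Whether these genes changed more with drug in HCC2935 than in the other lines was not tested here.

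The results have limits. HCC2935 is 1 line from 1 tumour, and each other line is the same, so what sets it apart cannot be given to a mutation, a tissue or the culture of the line. Only RNA was analysed here, without DNA, protein or the EGFR alleles of the lines. The shares of genes called higher and lower differ between edgeR on counts and limma on log2 TPM, and a low gene in HCC2935 is known only to its depth. The other lines stand for themselves and not for lung cancer lines at large.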

How the data were processed

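RNA libraries (poly-A selected, paired reads of 150 bases) of 4 lines were sequenced in 5 arms with 3 replicates each, and the 12 DMSO libraries were used. The submitters' processing notes name HISAT2 2.1.0, Salmon 0.8.2 and hg38 without saying which step each served. The authors deposited a table of estimated counts for 19712 gene symbols, with fractions and no scaling across samples. A table in log2 TPM for the same symbols was deposited too.

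The estimated counts were rounded and fitted with edgeR 4.0.16 in R 4.3.3 (TMM, filterByExpr by line, quasi-likelihood test, 1 mean per line), with the contrasts as given, after the steps had been tested on simulated data. Totals ran from 17.7 to 49.1 M over the 60 libraries, and 4498 genes were too low to test. Replicate numbers did not pair the libraries. Alternatives were run with DESeq2 1.42.0 and limma 3.58.1 among others. Figures were drawn with matplotlib 3.10.9 in Python 3.11.15.

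The members and lists were chosen with earlier results of these data known, and 32 lists were written from textbook knowledge. Genes were named by rule: the 10 highest and lowest above the stated level, the 2 highest and 2 lowest called members of each list with a mean of at least 5 CPM in a line, a set of receptor and identity genes, the cell type markers, and the top 3 genes of each run. Of 19712 symbols 19138 matched GENCODE 29. Of 157 genes named by these rules, 60 overlap exons of another gene and 55 an antisense gene, and their reads may be shared.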

Additional observations from a re-analysis of the deposited data

How the results depend on the processing

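The 157 named genes were refitted under 26 settings. Of 4076 comparisons, 3954 kept their direction and side of the threshold, 98 kept the direction but were no longer called (53 of them when the 9 other libraries were taken as 1 group), 10 became called and 14 changed sign. Without 1 library at a time, 9634 to 10686 genes were called, 2155 to 2470 were set apart as higher and 2214 to 2386 as lower, and 1160 to 1258 and 819 to 857 at least 2-fold. With the 9 libraries as 1 group, 5013 genes were called, since the spread between lines then enters the error. CDH1, EGFR, AXL, VIM and TRIM29 were among the calls lost, and TRIM29 fell from 6.90 to 3.45 on the log2 scale. With limma on log2 TPM, 1574 genes were set apart as lower, and the cause was not tested. Genes lower at least 2-fold numbered 1423 without PC9, 1291 without HCC827 and 1279 without H1975, as 1 comparison fewer was asked.

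With the replicate block, 10393 genes were called, 2374 and 2383 were set apart as higher and lower, 1176 and 842 at least 2-fold, and no named gene's call changed. The numbers did not pair the libraries: over 18 pairs the correlation of same-numbered libraries ran from -0.08 to 0.08.

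Changes of sign, on the log2 scale, were seen with other lines in the mean, with 1 group or with limma on log2 TPM. Without PC9 they were SERPINA1 (-1.20), SYT1 (-0.33), ITGA6 (0.29), UCHL1 (1.61) and PI3 (1.29). Without H1975 they were KRT15 (-0.19), KRT18 (-0.12), IL7R (0.52) and MET (0.0378). MET was 0.55 without HCC827 and 0.21 with limma on log2 TPM. With 1 group they were MAGEC1 (-1.73), CD74 (-1.11) and SERPINA1 (-0.65). Of 1600 list counts, 49 moved by more than 1.5 times. Genes below 3 counts per library in HCC2935, such as TUSC1 (2 counts over its 3 libraries) and DMRTA1 (3 counts), are limited by depth.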
